A study of Mus musculus with 18 samples.

Results

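Microglia that lacked *Tyrobp*, taken from mice with and without the Huntington's disease allele Q175, were compared as 1 group with microglia that carried *Tyrobp*. The Tyrobp-null group held 8 samples and the Tyrobp-intact group 10, which together are all 18 samples of the series with a label. All mice were on the C57BL/6 strain by the labels (C57Bl6/J by the methods) and were adult by the study, with no age in the labels, and all cells were enriched from dissociated striatum with magnetic beads against CD11b. The intact group was 5 wild-type (WT) samples and 5 Q175 samples, in which human *HTT* exon 1 with an expanded CAG repeat replaces part of mouse *Htt* on a single allele. The null group was 3 *Tyrobp*-/- samples and 5 Q175;*Tyrobp*-/- samples. The deletion is homozygous and present in every cell of the animal, so the microglia of the null group developed without the gene in a body that also lacked it. A sample is 2 striata by the labels and 1 striatum by the methods, in which the tissue of each mouse was dissociated on its own. The labels do not say that samples are separate animals, so p-values measure the spread between samples. Q175 status was a term of the fit, which gives each gene 1 difference between null and intact samples averaged over both backgrounds.

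TYROBP, also called DAP12, is a small transmembrane adaptor with an immunoreceptor tyrosine-based activation motif (ITAM). It has no ligand-binding domain of its own and pairs with receptors such as TREM2, and its phosphorylated motif recruits the kinase SYK. Microglia near lesions or plaques are known to lower genes of surveying, homeostatic cells and to raise a set called disease-associated microglia (DAM) genes, the later steps of which need TREM2 and TYROBP.

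Among 18613 genes tested, 30 were called at a false discovery rate (FDR) of 0.1 (0.161% of those tested), by edgeR's quasi-likelihood test with Benjamini-Hochberg adjustment, which gave every adjusted p below. Of these, 23 were lower in Tyrobp-null microglia (0.124%) and 7 were higher (0.0376%). The genes that fell included the secreted proteins *Spp1*, *Igf1*, *Csf1*, *Ccl3*, *Ccl4* and *Olfm4*, the receptor *Clec7a*, the lipid and lysosome genes *Lpl*, *Ch25h*, *Cst7* and *Lyz2*, the matrix enzymes *Lox* and *Mmp12*, and the sialyltransferase *St8sia6*. The genes that rose were *Lgi4*, *Siglecg*, *Zfp14*, *Zfp30*, *Khdrbs3*, *Klra17* and the pseudogene *Pdcd5-ps*. Levels are given as normalized counts, which are read counts scaled to a common library size, and differences as the log2 fold change of null over intact with its standard error (SE). In bulk samples, fewer cells of a type and less RNA per cell cannot be told apart.

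Promoters of 4 genes that fell are shown, from 250 bases before to 50 after an annotated start, because these genes mark the DAM state and moved together here. AP-1 and PU.1 are transcription factors known from macrophage enhancers. Capitals mark the AP-1 motif TGANTCA and the PU.1 motif GAGGAAG, searched on both strands, whose matches do not overlap. Sequences are from RefSeq on GRCm38.p6, read 5′ to 3′ on the strand of the gene. They cover chr5:104434861-104435160 (plus strand) for *Spp1*, chr10:87860861-87861160 (plus) for *Igf1*, chr2:150570165-150570464 (plus) for *Cst7* and chr6:129472730-129473029 (minus) for *Clec7a*.
Spp1: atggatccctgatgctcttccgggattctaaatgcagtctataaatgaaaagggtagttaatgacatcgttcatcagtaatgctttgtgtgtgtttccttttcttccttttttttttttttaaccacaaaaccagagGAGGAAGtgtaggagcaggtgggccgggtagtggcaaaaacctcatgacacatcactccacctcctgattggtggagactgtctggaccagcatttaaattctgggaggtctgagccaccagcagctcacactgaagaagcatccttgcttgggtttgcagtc
Igf1: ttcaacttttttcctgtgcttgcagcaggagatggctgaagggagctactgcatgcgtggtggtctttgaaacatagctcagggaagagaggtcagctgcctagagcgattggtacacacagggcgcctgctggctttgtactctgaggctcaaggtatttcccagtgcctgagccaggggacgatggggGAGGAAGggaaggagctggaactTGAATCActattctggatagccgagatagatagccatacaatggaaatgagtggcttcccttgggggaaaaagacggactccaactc
Cst7: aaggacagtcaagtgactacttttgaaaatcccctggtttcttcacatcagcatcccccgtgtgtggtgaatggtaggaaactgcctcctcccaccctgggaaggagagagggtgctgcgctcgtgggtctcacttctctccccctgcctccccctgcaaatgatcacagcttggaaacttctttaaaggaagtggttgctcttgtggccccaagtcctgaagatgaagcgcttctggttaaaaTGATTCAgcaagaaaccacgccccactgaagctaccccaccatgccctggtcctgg
Clec7a: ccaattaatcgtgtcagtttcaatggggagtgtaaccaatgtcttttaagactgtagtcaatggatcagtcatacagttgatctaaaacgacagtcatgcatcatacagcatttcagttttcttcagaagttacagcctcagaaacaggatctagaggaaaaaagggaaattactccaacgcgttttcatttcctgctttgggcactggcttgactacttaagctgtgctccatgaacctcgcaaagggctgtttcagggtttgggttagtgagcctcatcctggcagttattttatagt
*Spp1* held a PU.1 match, *Igf1* both motifs, *Cst7* an AP-1 match and *Clec7a* neither. A further listed promoter of *Spp1* (chr5:104435942-104436241) and one of *Clec7a*, not shown, held neither motif. Promoters were listed for 21 of the 30 called genes. A gene was counted as holding a motif if any of its listed promoters did. The AP-1 motif was found for 3 of 17 genes that fell (17.6%) and in 6.18% of the 11985 tested genes with a promoter, and the PU.1 motif for 6 of 17 (35.3%) and in 16.1%. A match is a description of these letters only.

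*Tyrobp* itself (chr7:30413760-30417585, plus strand) had normalized counts of 3629 to 8793 in intact samples, with a median of 5242, and of 183 to 395 in null samples, with a median of 268. The groups did not overlap, and every sample fell on the side its label gives. The log2 fold change was -4.33 ± 0.19 (adjusted p = 6.25e-11), which left a mean of 285 normalized counts in the null samples. The counts per gene do not show which exons those reads came from.

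*Hcst*, which encodes the other small adaptor DAP10, lies just past the end of *Tyrobp* on the opposite strand. It had 22.8 to 117 normalized counts (median 48.8) in intact and 44.1 to 128 (median 80.5) in null samples, and its log2 fold change of 0.68 ± 0.22 did not pass the test (adjusted p = 0.40). Libraries were non-directional, so reads of genes that overlap on opposite strands cannot be told apart.

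Of 16 receptors listed that signal through TYROBP, 12 were tested and 0 were called by edgeR. At an unadjusted p under 0.05, 7.41% of all tested genes were lower and 1.4% higher. The number of genes past that p depended on single samples. By edgeR it was 1639 with all samples, 884 without Q175 replicate 4 and 3497 without *Tyrobp*-/- replicate 20. Of these receptors 2 were higher (16.7%), namely *Itgam* (0.59 ± 0.27), a chain of complement receptor 3 and the protein that the beads bind, and *Sirpb1b* (1.08 ± 0.44). The median log2 fold change of the list was 0.23, against -0.02 for all genes tested, and was 0.13 without *Tyrobp*-/- replicate 15 and 0.37 without *Tyrobp*-/- replicate 20. Among 21 genes of the SYK pathway, 0 were called and the median was 0.24 (0.37 without *Tyrobp*-/- replicate 20). *Fgr*, a SRC-family kinase of myeloid cells, was the 1 member lower at an unadjusted p under 0.05 (-1.15 ± 0.37, adjusted p = 0.41), and *Dok3*, an inhibitory adaptor, the 1 higher (0.57 ± 0.20, adjusted p = 0.44). The 16 genes of ERK feedback had 0 called, 0 at an unadjusted p under 0.05 and a median of 0.06.

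*Spp1* (chr5:104435118-104441050), which encodes the secreted glycoprotein osteopontin, showed the largest fall among called genes. Intact samples had 117 to 2868 normalized counts (median 1132) and null samples 3.93 to 71.9 (median 10.1). The groups did not overlap although intact samples spread widely, and the highest null sample, Q175;*Tyrobp*-/- replicate 5, stood well above the other null samples. The log2 fold change was -6.05 ± 0.73 (adjusted p = 0.000402).

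*Igf1* and *Csf1* encode growth factors, the latter a ligand of the receptor on which microglia depend. *Igf1* had 16.9 to 233 normalized counts (median 91.0) in intact and 5.52 to 42.7 (median 13.2) in null samples, a log2 fold change of -2.59 ± 0.49 (adjusted p = 0.031). *Csf1* had 635 to 1387 (median 984) in intact and 299 to 739 (median 614) in null samples, a log2 fold change of -0.86 ± 0.17 (adjusted p = 0.046). The pooled groups overlapped for both. Each gene was lower in all 40 pairs of 1 null and 1 intact sample of the same background. These pairs share samples and use the values that called the genes, so the count is a description only. The share of all tested genes that reach it is not given here.

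*Ccl3* and *Ccl4* encode chemokines and lie side by side on chromosome 11. *Ccl3* had 129 to 701 normalized counts (median 384) in intact and 56.8 to 166 (median 98.0) in null samples, and *Ccl4* 88.4 to 470 (median 249) and 36.0 to 151 (median 59.7). Both fell, by log2 fold changes of -1.85 ± 0.27 (adjusted p = 0.00265) and -1.76 ± 0.32 (adjusted p = 0.028). Other chemokines did not all go the same way. Of 19 members of the list, 4 were lower (21.1%) and 2 higher (10.5%) at an unadjusted p under 0.05. Over all tested genes these shares were 7.41% and 1.4%. *Ccl5*, made by lymphocytes and activated myeloid cells, was at 1.66 ± 0.59 (adjusted p = 0.44) and *Cxcl16*, a membrane-bound chemokine, at -0.55 ± 0.16 (adjusted p = 0.33).

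**Figure D1:**
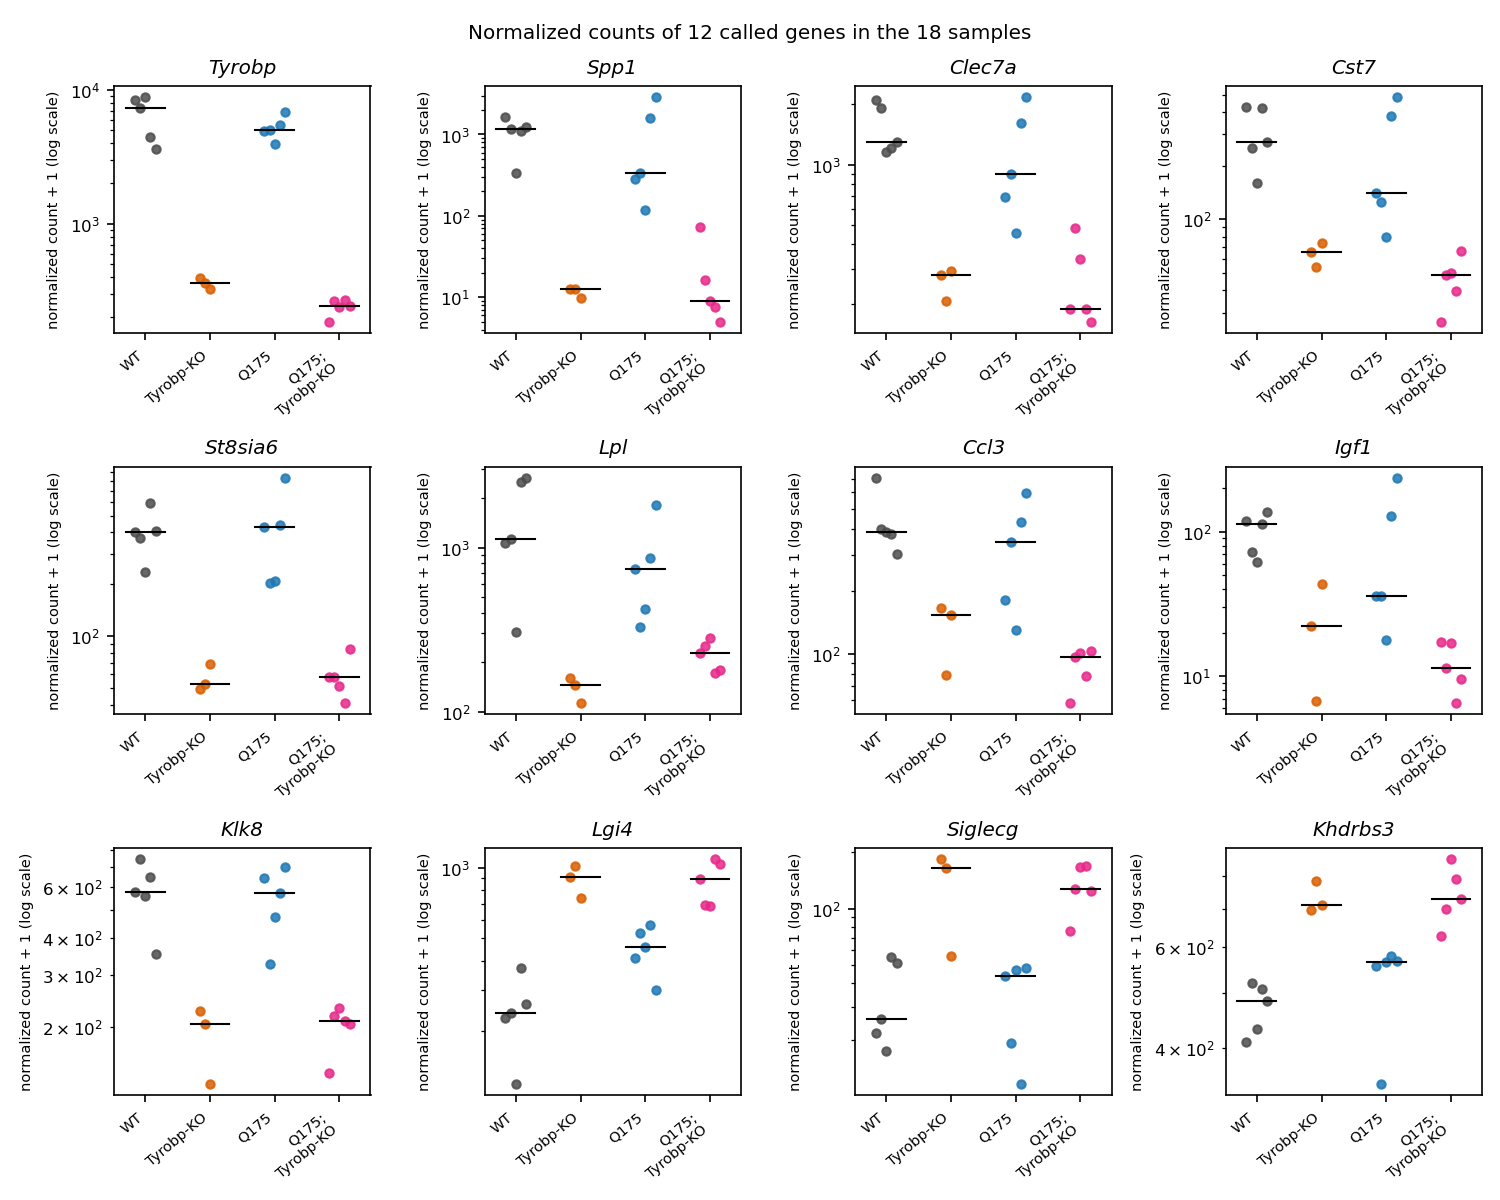
Normalized counts plus 1, on a log axis, of 12 called genes in each of the 18 samples, grouped by genotype, with a line at the median of each group. *Spp1* lies between 3.93 and 71.9 in the null samples and between 117 and 2868 in the intact samples, and *Lgi4* and *Siglecg* are higher in every null sample than in any intact sample.

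*Clec7a* (chr6:129461591-129472779), named a polymorphic pseudogene in the annotation, encodes the beta-glucan receptor Dectin-1, which carries an ITAM-like motif of its own. It had 454 to 2171 normalized counts (median 1256) in intact and 162 to 481 (median 243) in null samples, with an overlap of Q175 replicate 9 and Q175;*Tyrobp*-/- replicate 11. Its log2 fold change was -2.30 ± 0.30 (adjusted p = 0.00113). It was the only called member among 17 C-type lectins tested, whose median was -0.13, and among 20 phagocytic receptors, whose median was -0.07. In the latter list *Axl*, a receptor for cells that expose phosphatidylserine, had -1.05 ± 0.33 (adjusted p = 0.38) and *Cd36*, a fatty acid and scavenger receptor, -1.06 ± 0.33 (adjusted p = 0.39).

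Among lipid genes 2 were called, both lower, where 0.124% of all tested genes were called lower. *Lpl*, which releases fatty acids from lipoproteins, had 306 to 2643 normalized counts (median 962) in intact and 112 to 281 (the middle pair at 172 and 178) in null samples, without overlap, and a log2 fold change of -2.53 ± 0.43 (adjusted p = 0.013). *Ch25h*, which makes 25-hydroxycholesterol, had 12.1 to 226 (median 124) in intact and 0 to 15.7 (median 3.48) in null samples and a log2 fold change of -4.41 ± 0.65 (adjusted p = 0.00265). Both were lower in all 40 pairs within a background, which describes the values that called them and adds no separate evidence. Of 24 genes of lipid handling, 8 were lower (33.3%) and 0 higher at an unadjusted p under 0.05, where 7.41% of all tested genes were lower and 1.4% higher, and the median was -0.15. Of 25 genes of the cholesterol pathway, 0 were called by edgeR and 2 were lower at an unadjusted p under 0.05, among them *Srebf2*, a regulator of the pathway (-0.37 ± 0.14, adjusted p = 0.47).

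*Cst7*, which encodes an inhibitor of lysosomal cathepsins, had 78.8 to 482 normalized counts (median 260) in intact and 25.5 to 72.8 (median 51.0) in null samples. The groups did not overlap, and the log2 fold change was -2.34 ± 0.33 (adjusted p = 0.00197). *Lyz2*, lysozyme of myeloid cells, was called with the least margin (-0.84 ± 0.17, adjusted p = 0.073), and stayed called in 4 of the 18 fits that left out 1 sample. *Rab7b*, a small GTPase of late endosomes, had 22.8 to 129 normalized counts (median 61.5) in intact and 8.0 to 27.6 (median 14.1) in null samples and fell, with a log2 fold change of -2.16 ± 0.41 (adjusted p = 0.031). The 30 lysosome and cathepsin genes had a median of -0.01 with 2 called lower, *Cst7* and *Lyz2*, where 0.124% of all tested genes were.

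Matrix enzymes and secreted matrix proteins held 5 called genes of 31 tested, all of which fell, where 0.124% of all tested genes were called lower. With 5 more, 32.3% of the list was lower at an unadjusted p under 0.05, against 7.41% of all tested genes. The list median was 0.00. *Lox* (chr18:52516067-52529867), which cross-links collagen and elastin, had 23.6 to 128 normalized counts (median 39.9) in intact and 0 to 8.12 (median 5.19) in null samples, without overlap (-3.58 ± 0.50, adjusted p = 0.00197). *Mmp12*, macrophage elastase, had 38.3 to 282 (median 149) and 3.09 to 38.3 (median 21.4), with a gap of under 1 normalized count between the groups (-3.02 ± 0.49, adjusted p = 0.00698). *Olfm4*, a secreted olfactomedin glycoprotein, had 76.6 to 246 (median 170) and 20.4 to 61.4 (median 39.3), without overlap (-2.07 ± 0.28, adjusted p = 0.00138). The other 2 called members were *Spp1* and *Klk8*, the latter described with the region around *Tyrobp*.

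*St8sia6* (chr2:13651021-13794064, minus strand), which adds sialic acid to glycoproteins, was second to *Tyrobp* by p. Intact samples had 202 to 825 normalized counts (median 405) and null samples 39.8 to 83.3 (median 54.2). The groups did not overlap, and the log2 fold change was -2.86 ± 0.27 (adjusted p = 1.75e-05). It was the only one called among 25 sialyltransferases, whose median was 0.01. Lower at an unadjusted p under 0.05, without a call, were *St6galnac3* (-0.47 ± 0.18, adjusted p = 0.47) and *St6galnac2* (-1.99 ± 0.85, adjusted p = 0.51).

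*Siglecg*, an inhibitory receptor that binds sialic acid and is best known from B cells, went the opposite way. It had 10.6 to 54.2 normalized counts (median 33.9) in intact and 55.2 to 182 (median 145) in null samples, and the log2 fold change was 1.98 ± 0.32 (adjusted p = 0.00646). The groups met without overlap, since *Tyrobp*-/- replicate 20 had 55.2 and WT replicate 7 had 54.2. Among 8 Siglecs tested, *Siglece* (0.63 ± 0.18, adjusted p = 0.33) was also positive and *Cd33* (-0.55 ± 0.17, adjusted p = 0.38) and *Mag*, a myelin protein (-0.55 ± 0.19, adjusted p = 0.43), were negative, and the list median was -0.12.

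Of the remaining genes that fell, *Rai14*, an actin-associated ankyrin repeat protein, had 75.9 to 228 normalized counts (median 161) in intact and 32.7 to 81.6 (median 58.3) in null samples (-1.44 ± 0.23, adjusted p = 0.00646). The neighbouring olfactory receptor genes *Olfr111* and *Olfr110* both fell, with log2 fold changes of -0.80 ± 0.15 (adjusted p = 0.034) and -0.81 ± 0.16 (adjusted p = 0.036), and are uncertain as separate calls because reads of related genes can be split between them. *Adgrf2*, an adhesion G protein-coupled receptor, had 17.4 to 28.4 normalized counts (median 22.1) in intact and 4.09 to 13.9 (median 9.65) in null samples, without overlap (-1.28 ± 0.25, adjusted p = 0.038).

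Of the genes that rose, *Khdrbs3*, an RNA-binding regulator of splicing on chromosome 15, had the smallest change and no overlap. It had 345 to 579 normalized counts (median 513) in intact and 626 to 855 (median 720) in null samples (0.56 ± 0.11, adjusted p = 0.031). *Pdcd5-ps*, a processed pseudogene on chromosome 1, had 0 to 6.21 (median 1.79) in intact and 3.31 to 30.0 (median 16.4) in null samples (2.74 ± 0.50, adjusted p = 0.028). Its call is uncertain because it shares sequence with the parent *Pdcd5*, 5.23 Mb from *Tyrobp*, whose mean was 192 normalized counts in intact and 134 in null samples (-0.49, unadjusted p = 0.00193, adjusted p = 0.31).

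*Klrb1a* and *Klra17*, both of the natural killer gene complex, were called on few reads. Each reached 1 CPM in only 1 sample, of the group where it was high. This was Q175 replicate 14 for *Klrb1a* and Q175;*Tyrobp*-/- replicate 11 for *Klra17*. Their entry to the test thus depended on the values compared, so these calls carry little weight. *Klrb1a*, a lectin-like receptor, had 58 reads over the 10 intact and 1 read over the 8 null samples, a ratio of 54.6 per scaled read with a 95% exact binomial counting interval of 9.42 to 2194. *Klra17*, of the Ly49 receptor family, had 2 reads over the intact and 56 over the null samples, 29.7-fold higher with an interval of 7.86 to 252. These intervals cover counting error only, and both genes belong to families of near copies that can share reads.

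The region around *Tyrobp* on chromosome 7 held 7 of the 30 called genes (23.3%) within 15 Mb, where 2.2% of the tested genes lie (410 genes). These counts include *Tyrobp* itself, the deleted gene, whose place there was fixed by the design. *Lgi4*, a secreted protein known from myelination of peripheral nerve, started 0.65 Mb past *Tyrobp* and had 118 to 569 normalized counts (median 334) in intact and 683 to 1085 (median 905) in null samples, without overlap (1.36 ± 0.20, adjusted p = 0.00329). *Zfp14* and *Zfp30* encode zinc finger proteins and lie 0.38 and 0.63 Mb before it, with log2 fold changes of 1.05 ± 0.17 (adjusted p = 0.0066) and 0.64 ± 0.13 (adjusted p = 0.046). *Siglecg* lay 12.99 Mb past it.

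The genes of the region that fell were *Tyrobp*, *Klk8* and the long noncoding RNA *D7Ertd128e*. *Klk8*, the serine protease neuropsin, lay 13.4 Mb from *Tyrobp* and had 326 to 742 normalized counts (median 572) in intact and 127 to 231 (median 206) in null samples, without overlap (-1.52 ± 0.18, adjusted p = 0.000298). The transcript *2310002F09Rik* overlaps it on the other strand and had 61.0 normalized counts on average in intact and 26.8 in null samples. The averages of *Klk8* were 558 and 194. Reads from where the pair overlaps cannot be assigned to a strand. *D7Ertd128e* had 152 reads over the 10 intact and 4 over the 8 null samples (35.8-fold lower, interval 13.7 to 133). Of the 410 genes of the region, 18.5% had an unadjusted p under 0.05, against 8.81% of all tested genes. The origin of the chromosome around the deleted gene was not tested, and within this region a difference linked to the deletion and one linked to the surrounding chromosome cannot be told apart.

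**Figure D2:**
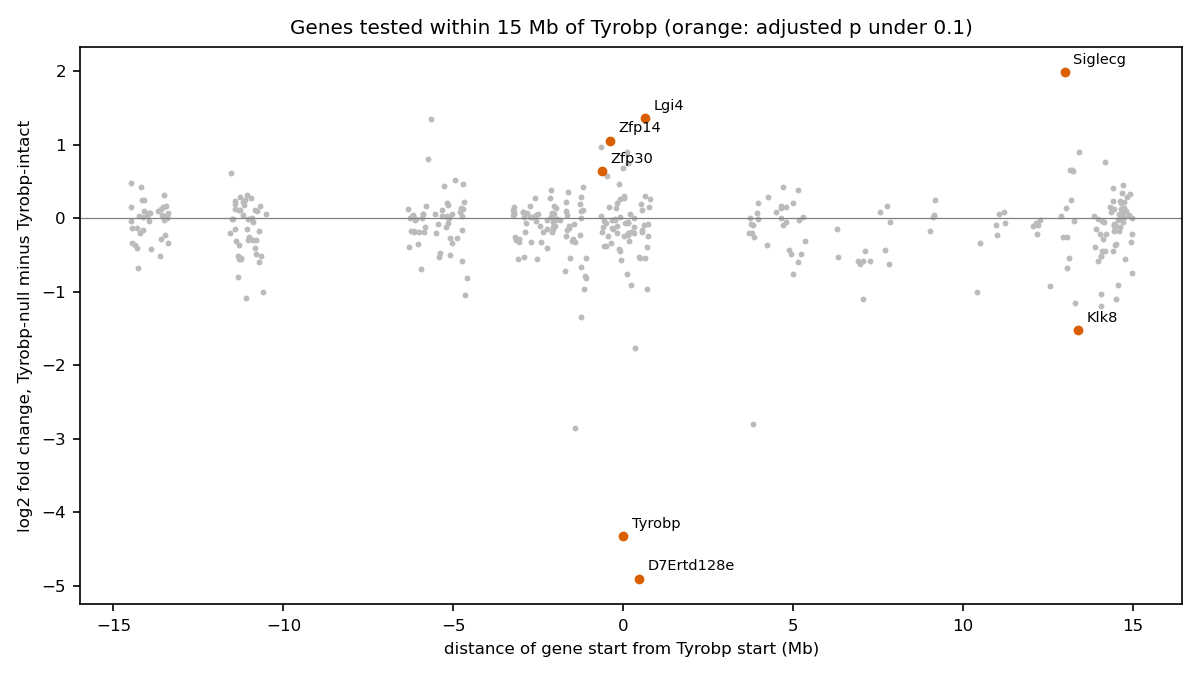
Log2 fold change of the 410 tested genes within 15 Mb of *Tyrobp* against the distance of their start from its start, in Mb, with called genes in orange. The 4 called genes that are higher and the 3 that are lower lie between -0.63 and 13.4 Mb.

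The 2 genes nearest to the threshold on its far side both had an adjusted p of 0.10. *Zfp74*, also in the region (0.58 ± 0.12), and the X-linked transcript *G530011O06Rik* (1.35 ± 0.29) were both higher in null samples. On the near side stood *Lyz2*, *Csf1* and *Zfp30*.

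The deletion was read in 2 sets of samples that share none, *Tyrobp*-/- against WT and Q175;*Tyrobp*-/- against Q175, although the pooled calls rest on both. Alone, these comparisons called 4 of 18017 genes (0.0222%) and 2 of 18059 genes (0.0111%). All 28 called genes that had a value in both had the same sign in both, and 26 had an unadjusted p under 0.05 in each. Because these genes were called on the same samples pooled, this agreement was largely set by their selection and is not a replication. *Spp1* had a log2 fold change of -6.58 ± 0.58 without Q175 and -5.72 ± 1.05 with it, *St8sia6* -2.78 ± 0.32 and -2.87 ± 0.39, *Clec7a* -2.50 ± 0.28 and -2.10 ± 0.44, and *Siglecg* 2.09 ± 0.50 and 1.96 ± 0.39. Among those whose values in the backgrounds lay apart were *Lpl*, at -3.40 ± 0.64 and -1.91 ± 0.40, and *Lgi4*, at 1.95 ± 0.30 and 0.96 ± 0.20, and the differences between backgrounds were not tested here.

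**Figure D3:**
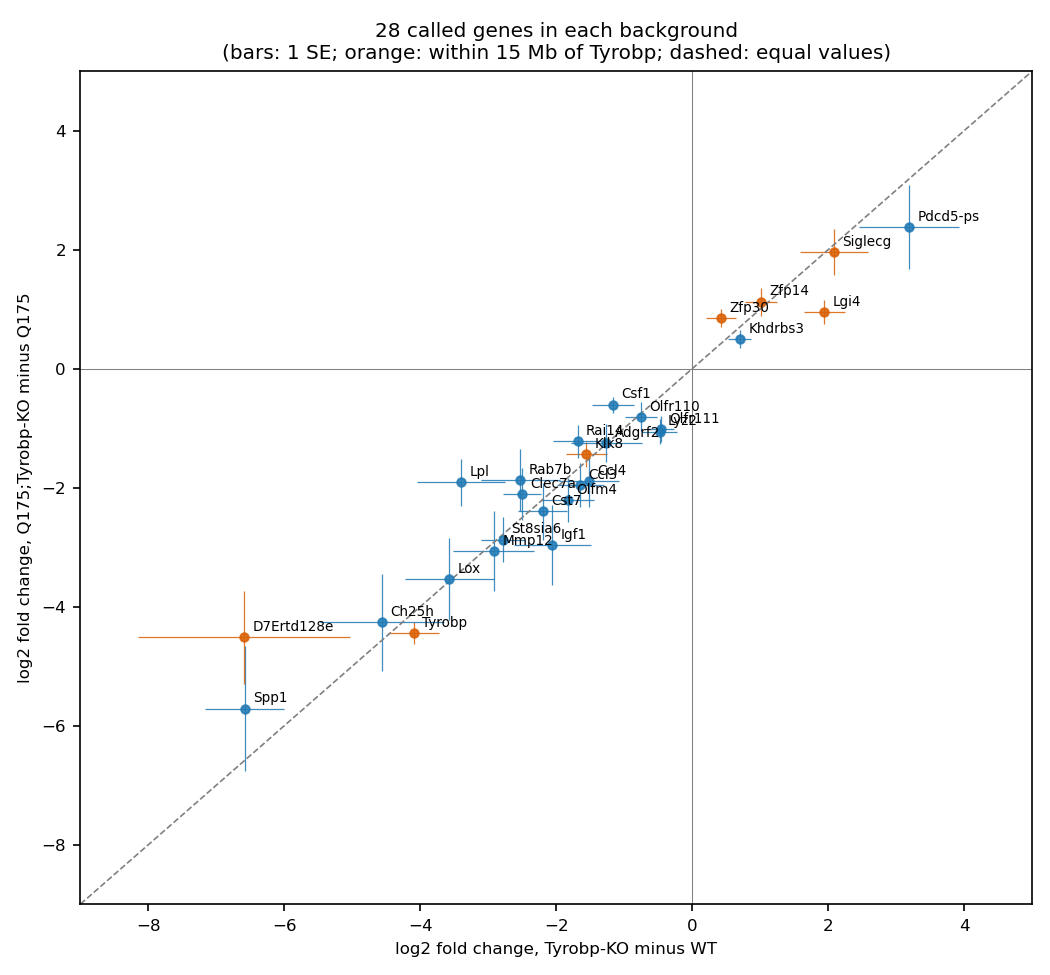
Log2 fold change of the 28 called genes with a value in both backgrounds, *Tyrobp*-/- minus WT on the x axis and Q175;*Tyrobp*-/- minus Q175 on the y axis, with bars of 1 SE and genes within 15 Mb of *Tyrobp* in orange. All 28 lie at the lower left or the upper right of the 0 lines, which their selection on the pooled samples favours. The x value of *D7Ertd128e*, which had 0 reads in the *Tyrobp*-/- samples, depends on the prior count of the fit.

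Over all genes, values past an unadjusted p of 0.05 were counted across the backgrounds. Of 762 genes lower at an unadjusted p under 0.05 in Q175;*Tyrobp*-/- against Q175, 75 were also lower in *Tyrobp*-/- against WT (9.84%, or 14% of the 535 lower there), where 3.06% of all 17462 genes with both values were lower. Of 614 genes higher, 16 were also higher (2.61%, or 2.51% of 638), against 3.65% of all. *Tyrobp* was left out of these counts.

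The Q175 term of the same fit called 0 of the 18613 genes by edgeR, with 950 at an unadjusted p under 0.05 and a smallest adjusted p of 0.81. Among the 23 genes that fell with the deletion, the Q175 term was positive for 6. The called genes with the lowest unadjusted p for it in edgeR were *Lyz2* (Q175 term -0.53) and *Olfr111* (-0.41).

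The groups did not overlap, with null below intact, for 11 genes (0.0591% of those tested), 10 of them called, and with null above intact for 3 genes (0.0161%), all called. The gene outside the calls was *4930556M19Rik* (-1.80 ± 0.39, adjusted p = 0.10), named here after its values were seen. Called genes without overlap were *Tyrobp*, *St8sia6*, *Klk8*, *Spp1*, *Olfm4*, *Lox*, *Cst7*, *Mmp12*, *Lpl* and *Adgrf2* below and *Lgi4*, *Siglecg* and *Khdrbs3* above.

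Per kilobase of exon, *Tyrobp* and *Lyz2* were the most abundant called genes in intact microglia, with 8801 and 3855 normalized counts per kilobase, followed by *Spp1* (647), *Clec7a* (513), *Ccl3* (502), *Ccl4* (422) and *Klk8* (362). In null samples the order of levels changed, with *Lyz2* at 2130, *Tyrobp* at 428, *Khdrbs3* at 201, *Lgi4* at 192 and *Zfp14* at 187, while *Spp1* had 10.4. The neighbours *Clec7a* and *Ccl3* in the intact order differ by less than their spread between samples.

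The DAM list of the later, TREM2-dependent step was the list with the most called genes. Like the other lists, it was chosen with earlier results of these data known. Of 27 members tested, 7 were called and fell (*Spp1*, *Clec7a*, *Cst7*, *Ch25h*, *Lpl*, *Igf1* and *Csf1*), where 0.124% of all tested genes were called lower. At an unadjusted p under 0.05, 16 were lower (59.3%) and 0 higher, where 7.41% of all tested genes were lower and 1.4% higher. The median log2 fold change was -0.49. The median was -0.27 without Q175 and -0.60 with it. The mean level over the list, in log2(normalized count + 1), was 8.98 to 10.5 (median 9.89) in intact and 8.60 to 9.03 (median 8.70) in null samples, so 7 of 8 null samples were below every intact sample. The 20 members without a call include *Trem2*, the receptor itself. The list of the earlier, TREM2-independent step held 9 genes, 1 of which was called (*Lyz2*), with a median of 0.01.

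Homeostatic genes showed no call by edgeR. Of 29 tested, 23 had a positive value, where 8577 of all 18613 tested genes did, and the median was 0.28. At an unadjusted p under 0.05, 4 were higher (13.8%, where 1.4% of all tested genes were) and 0 lower. The 4 were *Crybb1*, a crystallin of microglia (0.60 ± 0.17, adjusted p = 0.32), *Ltc4s*, leukotriene C4 synthase (0.42 ± 0.13, adjusted p = 0.38), *Klf2*, a transcription factor (0.60 ± 0.21, adjusted p = 0.44), and *Slc2a5*, a fructose transporter (0.44 ± 0.17, adjusted p = 0.48). The mean level of the list was 12.8 to 13.6 (median 13.4) in intact and 13.3 to 13.9 (median 13.6) in null samples, with 6 of 8 null samples above every intact one. The list of microglial markers moved with it, at a median of 0.21, and shares genes with it.

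**Figure D4:**
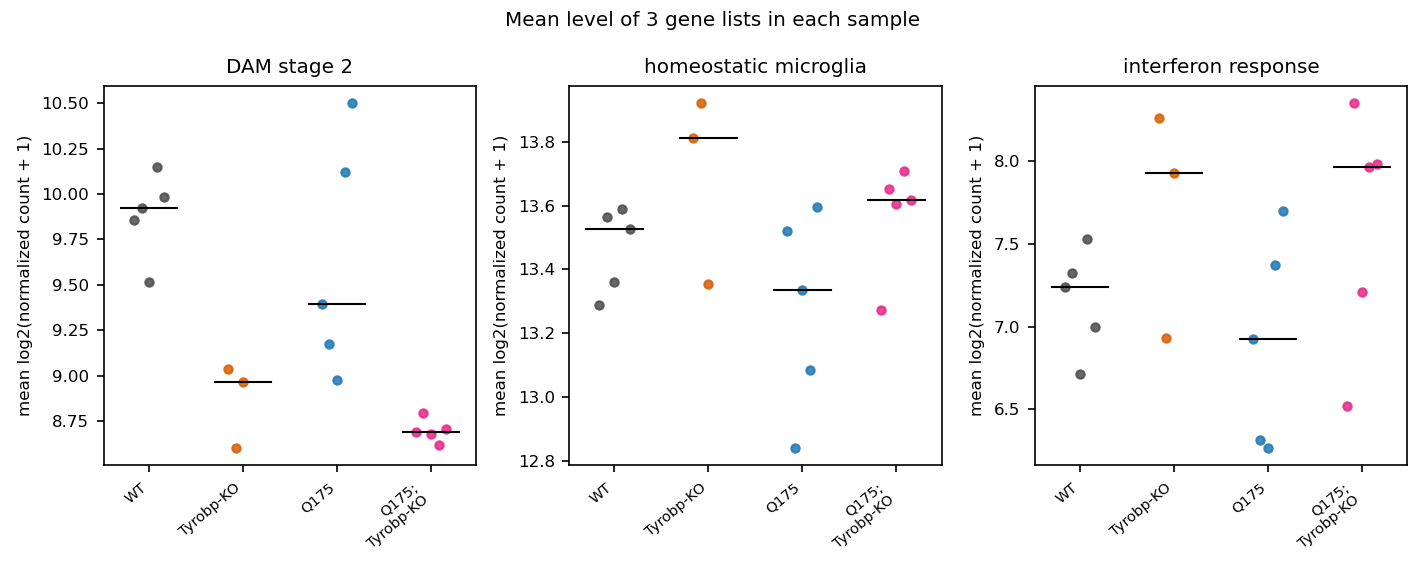
Mean log2(normalized count + 1) of the DAM stage 2, homeostatic and interferon response lists in each of the 18 samples by genotype, with a line at the median of each group. Null samples lie at 8.60 to 9.03 for the DAM list, at 13.3 to 13.9 for the homeostatic list and at 6.52 to 8.35 for the interferon list.

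Interferon response genes had the highest median of the functional lists with 8 or more tested genes. Of 32 tested, 31 had a positive value and 16 (50%) were higher at an unadjusted p under 0.05, where 1.4% of all tested genes were, but 0 were called by edgeR. The median was 0.60, and 0.53 and 0.50 without and with Q175. *Ifi44* had the highest value (2.70 ± 0.67, adjusted p = 0.22), with means of 8.54 normalized counts in intact and 58.3 in null samples. The antiviral enzymes *Oas2* (1.61 ± 0.50, adjusted p = 0.38) and *Rsad2* (1.03 ± 0.33, adjusted p = 0.39) and the related *Oasl1* (1.65 ± 0.55, adjusted p = 0.43) were the other members of smallest p.

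The samples of each group differed widely in these genes. The mean level of the list was 6.26 to 7.70 (median 7.12) in intact and 6.52 to 8.35 (median 7.95) in null samples. Of 8 null samples, 5 were above every intact sample, while Q175;*Tyrobp*-/- replicates 5 and 12 and *Tyrobp*-/- replicate 19 lay within the intact range. Markers of T or NK cells, of which 6 of 16 could be tested, had a median of 0.75, with a sum over the list of 53.1 to 197 normalized counts in intact and 114 to 389 in null samples and the highest mean level in Q175;*Tyrobp*-/- replicate 11, which also had the highest interferon level. Their part in the interferon values was not tested.

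**Figure D5:**
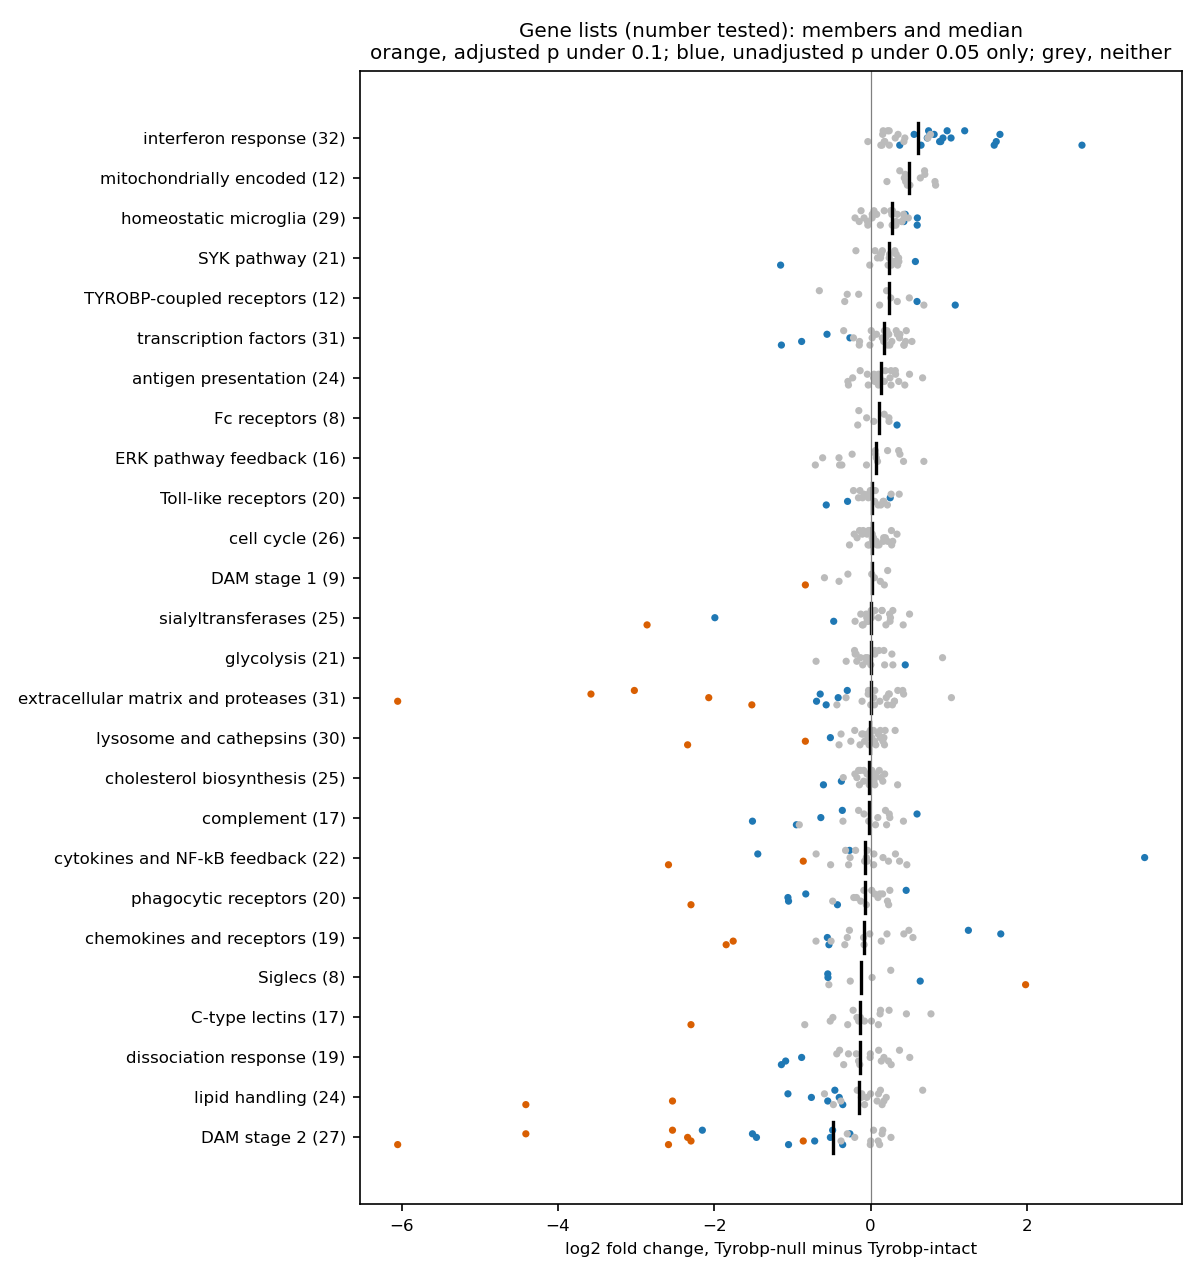
Log2 fold change, null minus intact, of the members of the functional lists with 8 or more tested genes, with a black line at each list's median. Called genes (orange) are found in 11 lists, but several, such as *Clec7a*, *Spp1* and *Cst7*, belong to more than 1 list. All but *Siglecg* lie below 0, and the interferon response list has the highest median, 0.60.

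Signalling and inflammatory lists each held 0 to 2 called genes. Of 22 cytokine and NF-kB genes 2 were called lower, *Igf1* and *Csf1*, both also counted among the DAM genes. Over all tested genes 0.124% were called lower. The median of the cytokine and NF-kB list was -0.07. In that list *Il1rn*, the interleukin-1 receptor antagonist, had -1.44 ± 0.46 (adjusted p = 0.39) and *Il12b*, a subunit of interleukin-12, 3.51 ± 0.84 (adjusted p = 0.20), from a mean of 2.10 normalized counts in intact to 21.2 in null samples. Of 17 complement genes, 0 were called by edgeR and the median was -0.02. At an unadjusted p under 0.05, 4 were lower (23.5%, where 7.41% of all tested genes were). Among them were *C4b* (-0.95 ± 0.24, adjusted p = 0.22), *Itgax* (-1.51 ± 0.41, adjusted p = 0.27), a complement receptor chain, and *Cfp*, properdin (-0.64 ± 0.24, adjusted p = 0.46). Of 20 Toll-like receptor pathway genes, *Tlr2* had the smallest p (-0.57 ± 0.14, adjusted p = 0.22).

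Antigen presentation (24 tested, median 0.13) and the cell cycle (26, median 0.02) had 0 genes called by edgeR and 0 at an unadjusted p under 0.05. Fc receptors (8, median 0.11) and glycolysis (21, median 0.00) had 0 called and 1 higher each at that p (12.5% and 4.76%, where 1.4% of all tested genes were). Of 31 transcription factors 0 were called by edgeR and 4 were lower at an unadjusted p under 0.05 (12.9%, where 7.41% of all tested genes were), led by *Egr1* (-1.14 ± 0.29, adjusted p = 0.23) and *Nr4a1* (-0.88 ± 0.32, adjusted p = 0.44), which are early-response genes and also belong to the list of genes that dissociation raises (19 tested, 3 lower or 15.8%, 0 called, median -0.14).

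Markers of other cells were present in both groups, and of all listed markers only the ependymal *Tmem212* was at 0 in every sample of a group, the null group. Total counts ranged from 11260410 to 29771983 per sample, and 22386 to 25914 genes had a count. Microglial markers summed to 362104 to 588880 normalized counts in intact and 403024 to 651795 in null samples, and 0 of 20 were absent. Medians of other marker lists were 0.40 for astrocytes, 0.00 for neurons, -0.48 for medium spiny neurons, -0.15 for oligodendrocytes, -0.04 for oligodendrocyte precursors, -0.14 for endothelial cells, -0.75 for mural cells, 0.02 for border-associated macrophages and 0.55 for monocytes or neutrophils, with 0 genes called by edgeR in any of them. Single samples moved several of these medians: without *Tyrobp*-/- replicate 20 they were -0.08 for astrocytes, -0.28 for neurons, -0.97 for medium spiny neurons and -0.42 for endothelial cells, without Q175 replicate 14 the astrocyte median was 0.60, without WT replicate 6 that of medium spiny neurons was -0.24, and without Q175 replicate 4 that of mural cells was -0.45. Ependymal or choroid plexus markers had a median of -2.05, with 4 of 8 (50%) lower at an unadjusted p under 0.05, where 7.41% of all tested genes were. Their sums were 84.5 to 27430 in intact and 105 to 7819 in null samples, highest in Q175 replicate 4, without which the median was -1.27. Mitochondrially encoded genes had a median of 0.49 (1.90 without and -0.59 with Q175), which was -0.39 without *Tyrobp*-/- replicate 20 and 0.93 without Q175 replicate 14. With a score of astrocyte, neuron and oligodendrocyte markers as a term, all 30 genes were still called. Of the null samples 4 of 8 and of the intact samples 5 of 10 came from females, but within the backgrounds these were 1 of 5 WT against 2 of 3 *Tyrobp*-/- and 4 of 5 Q175 against 2 of 5 Q175;*Tyrobp*-/- samples, and all 30 were still called with sex as a term.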

How the data were processed

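The authors enriched microglia from striata with CD11b beads, made non-directional SMART-Seq libraries, aligned reads to GRCm38 with STAR and deposited featureCounts counts per Ensembl gene, without normalization. The submitters' processing notes name GRCh38 instead; all 55536 identifiers are those of GENCODE M21 (GRCm38), from which symbols and positions were taken. A further 2 columns match no labelled sample and stayed out of every step. Counts were scaled by TMM in edgeR 4.0.16 (R 4.3.3), and each gene that reached 1 CPM in any of the 18 samples was fitted as Q175 status plus *Tyrobp* status (quasi-likelihood test, FDR 0.1). On simulated data with 200 changed genes of these 18613, edgeR recovered 73% at a log2 change of 1 and 97% at 2. The changed genes were drawn only from those above a minimum mean count, so recovery of genes with few reads was not measured. Genes named are all called genes, *Tyrobp*, *Hcst*, up to 4 members per list (called first, then by p) and the genes nearest the threshold; some are not reported here. The gene lists, motifs and promoters shown were chosen with earlier results of these data known. Alternatives were DESeq2 1.42.0, other scalings, filters and terms, single sexes and leaving out each sample.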

Additional observations from a re-analysis of the deposited data

Results flagged for a closer look

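In 60 groups of samples checked (30 called genes, intact and null), the highest or lowest sample stood apart from the nearest other by Dixon's criterion on the log2 scale in 5, and chance flags about 1 in 20 groups. Among null samples, *Spp1* was highest in Q175;*Tyrobp*-/- replicate 5 at 71.9 normalized counts, with the next at 15.2, which is still below the lowest intact sample. *Klrb1a* was highest in Q175;*Tyrobp*-/- replicate 13 at 1.10, where the other null samples had 0. *Pdcd5-ps* was lowest in the same sample at 3.31, with the next at 12.6. *Csf1* was lowest in *Tyrobp*-/- replicate 19 at 299, with the next at 489. Among intact samples, *Olfr111* was lowest in Q175 replicate 3 at 403, with the next at 585.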

How the results depend on the processing

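All 30 called genes kept their direction under every alternative that gave them a value. DESeq2's Wald test called 151 genes (29 higher and 122 lower), all 30 among them. Of the 121 others, 58 had their highest level in Q175 replicate 4. List members among the 121 included *Ifi44*, *Oas2*, *Crybb1*, *Siglece* and *Il12b*, which were higher. Others were *C4b*, *Itgax*, *Tlr2*, *Egr1* and *Otx2*, which were lower. On simulated data for this contrast edgeR called 14 of 18413 unchanged genes and DESeq2 48. The 9 females alone gave 1 call (0 higher and 1 lower, edgeR, 161 genes at an unadjusted p under 0.05) and the 9 males alone 2 (0 higher and 2 lower, 2155 genes), where fewer samples were tested. Without the 410 genes near *Tyrobp*, 23 genes were called, 3 of them higher. With scaling to total counts, which moves the median of all genes from -0.02 to 0.06, 26 were called. Leaving out each sample gave 24 to 64 calls, 6 to 14 higher and 18 to 50 lower, with 64 without Q175 replicate 17 and 12 higher without *Tyrobp*-/- replicate 20; 20 of the 30 genes were called in all 18 of these fits. Those lost were *Klrb1a* (without Q175;*Tyrobp*-/- replicate 13, adjusted p = 0.17, and not tested without Q175 replicate 14), *Klra17* (not tested without Q175;*Tyrobp*-/- replicate 11), *Rab7b* (*Tyrobp*-/- replicates 15 and 19, 0.10), *Khdrbs3* (*Tyrobp*-/- 19, 0.11), *Adgrf2* (*Tyrobp*-/- 19 and Q175;*Tyrobp*-/- 13, 0.10), *Olfr111* (highest 0.15, without Q175 replicate 4, and 3 others), *Olfr110* (0.12, Q175 4, and 2 others), *Csf1* (0.15, *Tyrobp*-/- 15, and 3 others), *Zfp30* (0.15, *Tyrobp*-/- 15, and 5 others) and *Lyz2* (0.24, Q175 4, and 13 others). Genes whose groups do not overlap numbered 22 without WT replicate 6 and 14 with it. *Tyrobp*-/- against WT gave 168 calls by DESeq2 and 2 to 8 without single samples, and Q175;*Tyrobp*-/- against Q175 gave 41 and 1 to 5. List medians moved to -0.11 in females for receptors that pair with TYROBP, and in males to 0.41 for complement, 0.11 for phagocytic receptors, 0.61 for ependymal or choroid plexus markers (*Otx2* 0.33, *Prlr* 1.31, *Aqp1* 0.63, *Ttr* 0.37, each reversed) and 0.98 for border-associated macrophages. Other medians also changed sign by sex. For the cell cycle they were -0.28 in females and 0.38 in males. In females they were -0.15 for antigen presentation, -0.08 for transcription factors and 0.35 for oligodendrocytes. For medium spiny neurons, at -0.48 over all samples, the median was 0.04 in females and -1.26 in males. Without *Tyrobp*-/- replicate 20, medians were 0.41 for homeostatic genes, -0.26 for lipid handling, 0.34 for transcription factors, 0.24 for antigen presentation and 0.20 for Fc receptors; without *Tyrobp*-/- replicate 15, -0.33 for Siglecs and -0.03 for antigen presentation; without WT replicate 7, 0.04 for Siglecs and -0.20 for C-type lectins; without Q175 replicate 17, 0.12 for oligodendrocytes; and without *Tyrobp*-/- replicate 19, 0.27 for monocytes or neutrophils. The cause was not tested. The interferon median was 0.53 to 0.72 without single samples, 0.29 in females and 0.59 in males. No paired analysis was possible because the groups have no replicate number in common. PCR copies cannot be told from separate molecules here, so genes with few reads are the least certain.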
